A study of Homo sapiens with 4 samples.

Results

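The annexins are a family of proteins that bind acidic phospholipids in the presence of calcium. Each has a conserved core built from annexin repeats and an N-terminal tail of its own. The core docks on the inner face of the plasma membrane and on endosomes when calcium rises. The tail binds partners, among them small S100 proteins, and sets what each annexin does in membrane repair, vesicle traffic and the control of inflammation. Epithelial cells express several of them together.

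The 9 genes described here are ANXA1, ANXA2, ANXA3, ANXA4, ANXA5, ANXA6, ANXA7, ANXA8 and ANXA11, out of 60302 genes in the table. They were selected by their symbols, with the row of highest mean kept per symbol, and each symbol had 1 row. The choice was made with the values known: ANXA1 was named because it lay higher in both knockdown samples, so every difference between the groups for these 9 genes is given as a description, without a test. All 9 were among the 13110 genes whose mean reached 1 FPKM, the set that entered the tests. FPKM stands for fragments per kilobase of transcript with the library total scaled out.

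The samples were 4 RNA-seq libraries of HMLE, an immortalized human mammary epithelial line. In the control group (n = 2) the cells stably carried a non-specific shRNA, and in the hnRNPF knockdown group (n = 2) an shRNA against HNRNPF, both brought in with lentiviral vectors. HNRNPF encodes an RNA-binding protein of G-rich sequence that takes part in splicing, and the series title concerns RNA G-quadruplexes, structures formed by runs of G. PolyA-selected RNA was sequenced as stranded paired-end libraries. It is not labelled whether samples sharing a group are separate infections, or whether 1 hairpin or several were used, so errors and p-values speak only of the spread among these 4 libraries. Errors are SDs over n = 2 unless named otherwise.

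The targeted gene matched the labels. HNRNPF (chr10:43881065-43904614, minus strand, GRCh37) stood at 154 and 153 FPKM in control cells, against 18.7 and 16.6 in knockdown cells, with an adjusted p of 0.0251 in limma. It was the only gene past the adjusted threshold of 0.05, which is 0.00763% of the genes tested. That call was lost without control 1 (adjusted p = 0.262 in limma) or without control 2 (adjusted p = 0.104), with log2 differences of -3.05 and -3.06. It was also lost without the filter on low values (adjusted p = 0.0988 in limma) and without the intensity trend of the fit (adjusted p = 0.0995). Without knockdown 2 there were 2 genes past the threshold. The basal keratin KRT5 lay between 3203 and 4878 FPKM in the 4 samples. The immune markers CD3E and LCP2 were listed at 0 in all of them, and the defining leukocyte gene PTPRC was at or below 0.0384 FPKM. Summed over 7 fibroblast markers the level was 11.8 and 10.2 FPKM for the controls, against 12.5 and 13.5 FPKM for knockdown. Most of it was COL1A1. PDGFRB reached 0.828 FPKM (control 1), COL1A2 0.476 FPKM (knockdown 1) and COL3A1 0.176 FPKM (knockdown 2). PDGFRA, LUM and DCN were at or below 0.122 FPKM in every sample. The sum of the adipocyte markers was 0.230 and 0.107 FPKM for the controls, against 0.0856 and 0.0671 FPKM for knockdown, with LEP and CIDEC listed at 0. Neither of these 2 sums overlapped between the groups, and their part in the annexin values was not tested. The summed basal, general epithelial, immune and endothelial markers all overlapped, but single epithelial markers did not. Of 7 basal markers, KRT17 (974.8 and 1573 FPKM for the controls, against 1786 and 2170 for knockdown), TP63 and CDH3 were higher in both knockdown samples, with log2 differences of 0.67, 0.37 and 0.32. The basal markers KRT5 (-0.14), ITGA6 (-0.23), ITGB4 (-0.18) and KRT14 (0.23) overlapped. Of 5 measured general epithelial markers, EPCAM (-0.38) and KRT18 (-0.39) were lower and KRT8 (0.14) was higher in both. CDH1 (0.59) and GRHL2 (-0.09) overlapped. Over all tested genes, 17.5% were higher and 17.1% lower in knockdown without overlap. None of these epithelial markers passed in limma (lowest adjusted p = 0.762, for CDH3), and their part was not tested either. In such bulk RNA, fewer cells of a type and less RNA per cell cannot be told apart. Fragment totals are not listed, so the depth behind an FPKM value is unknown and no counting interval is given.

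Sequences are shown first for 2 reasons. The protein depleted here binds runs of G, and reads of some annexins can be shared with near-identical copies. In the GENCODE 29 transcript chosen for each gene, a search was made on the transcript strand for 4 runs of GGG separated by 1 to 7 bases, a common letter pattern for a G-quadruplex. It was found in 3 of the 9 annexins (33.3%), against 26% of the 11031 tested protein-coding genes that were searched. In ANXA3, ANXA5 and ANXA6 at least 1 match lay in the annotated leader ahead of the coding sequence, where 10.3% of the same genes had a match. These leader matches are given 5′ to 3′, with runs of G in capitals.
ANXA3 leader, transcript bases 54 to 76: GGGcgtaGGGagaaaaGGGtGGG
ANXA5 leader, transcript bases 58 to 81: GGGccctggcGGGGGtGGGacGGG
ANXA5 leader, transcript bases 89 to 106: GGGcaGGGccGGGGtGGG
ANXA6 leader, transcript bases 5 to 29: GGGtGGGGtggaggaGGGaggcGGG

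Of the 3 genes with a match, ANXA3 was higher and ANXA5 and ANXA6 were lower in the knockdown samples. ANXA1, ANXA2, ANXA4, ANXA7, ANXA8 and ANXA11 had no match in the transcript searched. Among transcripts within 20% of the length of each gene's own, the share with the pattern lay between 18.9% (for the length of ANXA1) and 31.2% (for that of ANXA11). The annexins differed in the density of runs of at least 3 G. ANXA1 had 5 such runs in 1509 bases, or 3.31 per kb, and 0.639% of the 1409 transcripts of like length had as few or fewer. ANXA6 stood at the other end with 20.4 per kb, where 82% of transcripts of like length had as many or fewer. ANXA5, with 14.8 per kb, lay near the median of 14.9 per kb for its length. The transcripts of like length were not matched on base composition, and its part in these densities was not tested. A match to letters is not a measured structure or a binding site, and introns were not searched.

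The second set of sequences shows how closely 2 members resemble other genes in the table. The coding sequence of ANXA2 was identical to the processed pseudogene ANXA2P2 at 1001 of 1017 aligned bases (98.4%), with a longest identical stretch of 221 bases. The 90-base window with the most differences is printed with the differing bases in capitals, numbered from the first base of the ANXA2 coding sequence and of the ANXA2P2 transcript.
ANXA2, bases 131 to 220: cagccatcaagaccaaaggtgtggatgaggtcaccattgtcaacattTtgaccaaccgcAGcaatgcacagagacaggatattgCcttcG
ANXA2P2, bases 131 to 220: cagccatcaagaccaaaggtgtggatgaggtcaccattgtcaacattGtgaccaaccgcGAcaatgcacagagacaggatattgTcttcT
The coding sequences of ANXA8 and its copy ANXA8L1 were identical at 976 of 981 bases (99.5%), with a longest identical stretch of 408 bases. Their most different window holds only 2 differences.
ANXA8, coding bases 441 to 530: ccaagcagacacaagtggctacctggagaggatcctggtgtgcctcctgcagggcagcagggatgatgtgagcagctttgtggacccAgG
ANXA8L1, coding bases 441 to 530: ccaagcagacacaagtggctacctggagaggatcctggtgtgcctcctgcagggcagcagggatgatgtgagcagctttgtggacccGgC

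By contrast, the 9 members are far apart from each other. Identity between their aligned coding bases ran from 56.3% (ANXA1 with ANXA3) to 63.6% (ANXA4 with ANXA11) over all pairs. How the authors' counting divided reads between the near-identical copies is not given in the sources used here, so values of ANXA8 and its copies are uncertain as single genes.

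ANXA2 was by far the most abundant annexin, and 4 genes made up most of the family signal. On the FPKM scale, which is per length, the 9 genes summed to 2439 and 2956 in the controls and to 2903 and 2952 in the knockdown samples, and these groups overlapped. ANXA2 held 66.6% and 69.7% of that sum in the controls and 68.8% and 69.7% in knockdown. ANXA1, ANXA2, ANXA3 and ANXA5 together held between 93.7% and 94.7% in every sample. The order by control mean was ANXA2, ANXA1, ANXA5, ANXA3, ANXA7, ANXA8, ANXA11, ANXA4 and ANXA6. In the controls ANXA7 and ANXA8 did not differ beyond their spread, and the other neighbours in this order had separate ranges. In knockdown ANXA3 (mean 179 FPKM) stood beside ANXA5 (mean 171 FPKM) with overlapping ranges, as did ANXA8 with ANXA7 and ANXA11 with ANXA4.

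**Figure D1:**
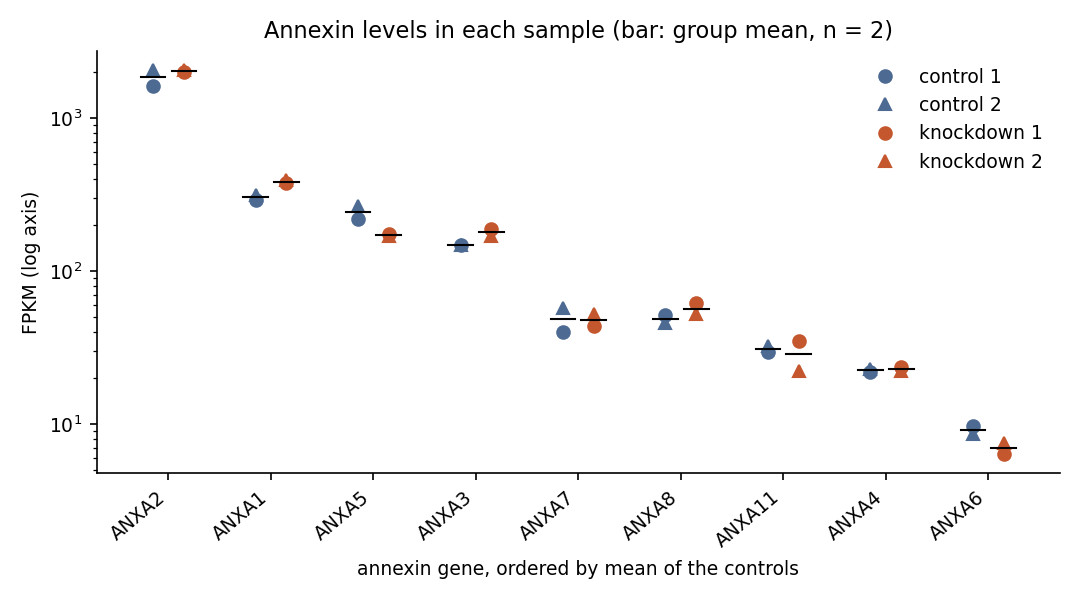
FPKM (log axis) of the 9 annexins in control (blue) and hnRNPF knockdown (orange) samples, with circles for replicate 1, triangles for replicate 2 and a bar at each group mean (n = 2). ANXA2 lies between 1625 and 2060 FPKM and ANXA6 below 10 FPKM in all 4 samples, and the ANXA5 points sit above the ANXA3 points in the controls only.

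For 5 of the 9 annexins the 2 groups did not overlap. ANXA1, ANXA3 and ANXA8 were higher in both knockdown samples than in both controls, and ANXA5 and ANXA6 were lower. Over all tested genes the groups did not overlap for 34.6%, with 17.5% higher and 17.1% lower in knockdown. These counts rest on the values that chose the family, so nothing is read from them. The fitted log2 differences (knockdown minus control, on the log2(FPKM + 1) scale) ran from -0.49 for ANXA5 to 0.34 for ANXA1, with a median of 0.03 over the 9 genes and 0.00 over all genes tested. The median size of the difference, regardless of sign, was 0.22 for the annexins and 0.12 for all genes. The annexin values were known when the family was chosen, and the scale understates changes of low genes. Nothing is read from these medians either.

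ANXA1 (ENSG00000135046.13, chr9:75766673-75785309, plus strand, GRCh37) encodes annexin A1, a mediator through which glucocorticoids dampen inflammation. It was at 292 and 315 FPKM under the control shRNA and 374 and 396 FPKM after knockdown. The lowest knockdown value lay 59.3 FPKM above the highest control, against ranges of 22.5 FPKM within the controls and 22.1 FPKM within knockdown. The means were 303 ± 15.9 and 385 ± 15.6 FPKM, 1.27-fold higher in knockdown, with a log2 difference of 0.34 (SE 0.0994). By replicate number the log2 difference was 0.36 between the samples numbered 1 and 0.33 between those numbered 2.

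ANXA3 (ENSG00000138772.12, chr4:79472673-79531605, plus strand, GRCh37) encodes annexin A3, known from the granules of neutrophils. It was at 149 and 148 FPKM in control cells, against 188 and 171 in knockdown cells. Both knockdown samples were above both controls, and the controls lay closer together than the knockdown samples. The means were 148 ± 0.632 and 179 ± 11.9 FPKM, 1.21-fold higher in knockdown, with a log2 difference of 0.27 (SE 0.0944).

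ANXA5 (ENSG00000164111.14, chr4:122589110-122618268, minus strand, GRCh37) encodes annexin A5, which binds exposed phosphatidylserine and, as a purified protein, is the common stain for apoptotic cells. It was at 219 and 265 FPKM under the control shRNA and 174 and 169 FPKM after knockdown. The gap of 45.8 FPKM between the groups was about as wide as the range within the controls, 45.8 FPKM, and wider than that within knockdown, 5.11 FPKM. The means were 242 ± 32.4 and 171 ± 3.62 FPKM, 1.42-fold lower in knockdown, with a log2 difference of -0.49 (SE 0.124), the lowest of the family. Its share of the summed annexin FPKM was 9.0% and 8.97% in the controls against 5.98% and 5.71% in knockdown.

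The opposite positions of these genes set their ratios apart. ANXA1 stood at 1.33 and 1.19 times the FPKM of ANXA5 in the controls and at 2.15 and 2.35 times in the knockdown samples. ANXA3 stood at 0.677 and 0.557 times ANXA5 in the controls and at 1.08 and 1.01 times in knockdown. The ratio to ANXA5 was therefore higher in each knockdown sample for both genes, which follows from the values above and is no separate evidence.

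ANXA6 (ENSG00000197043.13, chr5:150480273-150537443, minus strand, GRCh37) encodes annexin A6, the largest of the family through a doubling of the core, with roles in endosomes and cholesterol transport. It was at 9.75 and 8.67 FPKM in control cells, against 6.40 and 7.6 in knockdown cells. The groups did not overlap, but the gap of 1.07 FPKM was smaller than the range within either group (1.08 and 1.19 FPKM). The means were 9.21 ± 0.761 and 7.0 ± 0.843 FPKM, 1.32-fold lower in knockdown, with a log2 difference of -0.35 (SE 0.149).

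ANXA8 (ENSG00000265190.6, chr10:48255204-48279200, plus strand, GRCh37) encodes annexin A8, known from late endosomes and from basal epithelial cells. It was at 51.8 and 45.9 FPKM under the control shRNA and 61.6 and 52.4 FPKM after knockdown. The groups were separated by only 0.626 FPKM, less than the range within either of them. The log2 difference was 0.22 (SE 0.127), or 1.17-fold higher in knockdown. It was 0.10 without knockdown 1, 0.13 without control 2 and 0.33 without knockdown 2. The sample numbered 2 had the lower value in both groups.

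The copies of ANXA8, which were not members, lay in the same order. ANXA8L1 was at 33.3 and 32.1 FPKM in control cells, against 38.5 and 36.4 in knockdown cells, and ANXA8L2 at 38.0 and 35.0 FPKM and at 43.2 and 38.7 FPKM. Neither passed over all genes in limma (log2 difference 0.19, 95% interval -0.06 to 0.44, adjusted p = 0.872 for ANXA8L1 and 0.16, -0.12 to 0.45, adjusted p = 0.916 for ANXA8L2). Given the identity printed above, ANXA8 and ANXA8L1 cannot be taken as independent measurements, and ANXA8L2 was not aligned. Summed, they were at 123 and 113 FPKM under the control shRNA and 143 and 128 FPKM after knockdown, with a log2 difference of 0.20. The transcript AL591684.1, which covers the ANXA8 locus on the same strand, was at 0.542 and 0.492 FPKM in control cells, against 1.99 and 2.2 in knockdown cells. The corresponding transcript at ANXA8L2, AL603965.1, was at 12.1 and 10.8 FPKM and at 15.8 and 15.2 FPKM. LINC00842, which overlaps ANXA8L1, was at 8.08 and 2.46 FPKM and at 10.5 and 9.30 FPKM. Every one of these overlapping transcripts was higher in both knockdown samples than in both controls, and a shift of reads between them and the ANXA8 genes was not tested beyond these sums. With its overlapping transcripts added, the log2 difference of ANXA8 was 0.25.

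**Figure D2:**
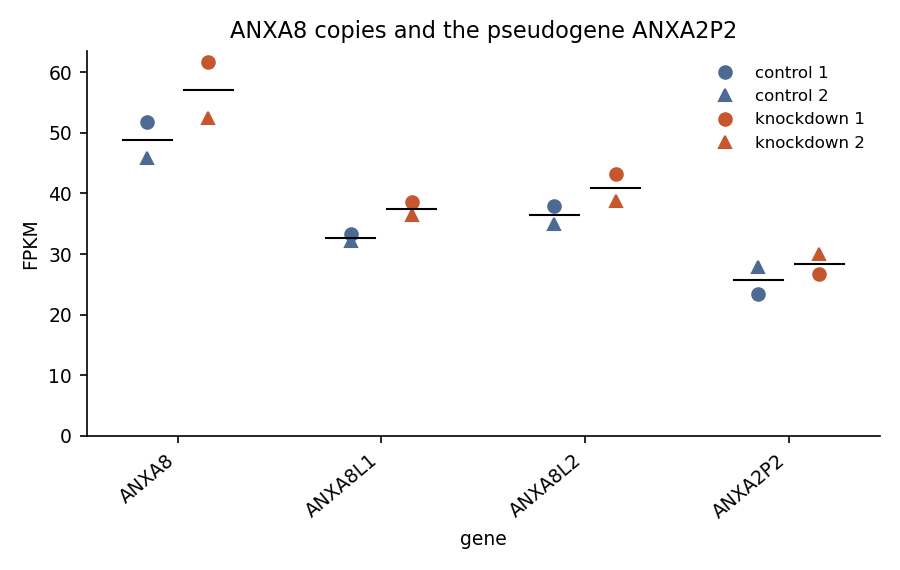
FPKM of ANXA8, its copies ANXA8L1 and ANXA8L2, and the ANXA2 pseudogene ANXA2P2 in control (blue) and hnRNPF knockdown (orange) samples, with circles for replicate 1, triangles for replicate 2 and bars at group means (n = 2). The ANXA8 gap between the groups is 0.626 FPKM, and the ANXA2P2 groups overlap.

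ANXA2 (ENSG00000182718.16, chr15:60639333-60695082, minus strand, GRCh37) encodes annexin A2, which pairs with S100A10 at the plasma membrane and there binds components of the plasmin system. It was at 1625 and 2060 FPKM under the control shRNA and 1997 and 2058 FPKM after knockdown. Control 1 was the low sample, and control 2 lay at the level of the knockdown samples. The means were 1843 ± 307 and 2028 ± 43.3 FPKM. The log2 difference of 0.15 (SE 0.166) was 0.30 between the samples numbered 1 and -0.00 between those numbered 2, and it was 0.32 without control 2, -0.02 without control 1 and -0.20 with quantile normalization. ANXA2P2 was found at 23.5 and 27.9 FPKM in control cells, against 26.7 and 30.0 in knockdown cells, which is 1.34% to 1.46% of the ANXA2 value in each sample. The other pseudogenes ANXA2P1 and ANXA2P3 were at or below 0.0932 FPKM.

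The remaining 3 annexins overlapped between the groups. ANXA4, which binds membranes of secretory epithelia, was at 22 and 23.1 FPKM under the control shRNA and 23.7 and 22.4 FPKM after knockdown. ANXA7, also called synexin for its part in granule fusion, was at 40.2 and 57.9 FPKM and at 43.6 and 52.9 FPKM. For ANXA7 the samples numbered 2 were higher in both groups, 1.44-fold in the controls and 1.21-fold in knockdown. ANXA11, which links RNA granules to lysosomes, was at 29.6 and 32.7 FPKM in the controls, at 35.1 FPKM in knockdown 1 and at 22.3 FPKM in knockdown 2. Knockdown 1 was thus the highest and knockdown 2 the lowest of the 4 samples, and the log2 difference was 0.24 between the samples numbered 1 and -0.53 between those numbered 2. Without knockdown 2 the ANXA11 difference was 0.17, and without knockdown 1 it was -0.46. The log2 differences of ANXA4 (0.03, SE 0.0994), ANXA7 (-0.01, SE 0.211) and ANXA11 (-0.15, SE 0.233) were all smaller than their SE.

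**Figure D3:**
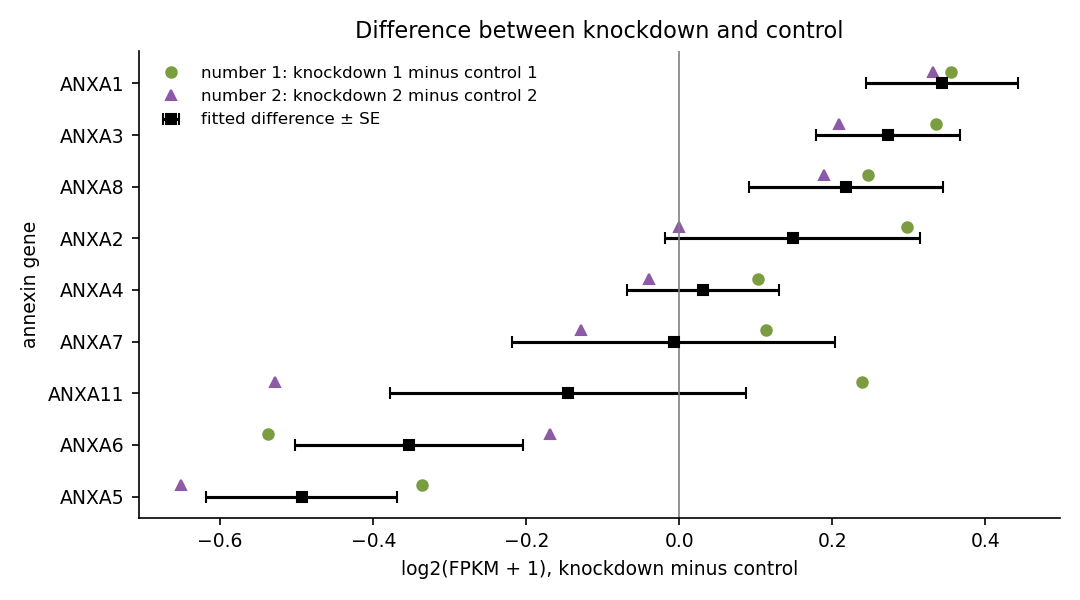
Log2(FPKM + 1) of knockdown minus control for the 9 annexins: squares with bars give the fitted difference ± SE over all 4 samples, circles the samples numbered 1 and triangles those numbered 2. Circle and triangle lie on the same side of 0 for ANXA1, ANXA3, ANXA8, ANXA5 and ANXA6. That follows from groups that do not overlap and is no separate evidence. They lie on opposite sides for ANXA11, ANXA7, ANXA4 and, by a margin of under 0.01, ANXA2.

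The genes whose profile lay nearest to that of ANXA1 over the 4 samples were PAPSS2, HIVEP3 and SEMA3A. Nearness was the root mean square distance between log2(FPKM + 1) values centred over the samples, which was 0.00327, 0.00688 and 0.0146. PAPSS2, which makes the sulfate donor of the cell, was at 2.61 and 2.88 FPKM in control cells, against 3.61 and 3.86 in knockdown cells. SEMA3A, a secreted guidance cue, was at 2.90 and 3.10 FPKM and at 3.99 and 4.25 FPKM. With 4 samples such nearness is a description of these libraries only, and all 3 genes were far less abundant than ANXA1.

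Apart from the ANXA8 copies, the other annexins examined were scarce in these cells. ANXA9 was at 0.663 and 0.559 FPKM under the control shRNA and 0.749 and 0.427 FPKM after knockdown. ANXA10 and ANXA13 were listed at 0 in all 4 samples. ANXA2R, a proposed receptor for annexin A2, was at or below 0.253 FPKM.

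Genes that work with annexins were then compared. The choice of members did not use them, but the lists were drawn up with earlier results of these data known. The 7 lists held 58 genes, and 44 were measured at a mean of at least 1 FPKM, ANXA8L1 and ANXA8L2 among them. None passed the adjusted threshold over all genes in limma (lowest adjusted p = 0.772). Before adjustment, 4 had a p under 0.05 (1 higher and 3 lower), against 6.08% of all genes tested. Without overlap between the groups, 14 of the 44 were higher and 4 lower, beside 17.5% and 17.1% of all genes tested. The 14 include ANXA8L1 and ANXA8L2, copies of the member ANXA8 whose values are uncertain as single genes. The median log2 difference was 0.07. Counts above and below 0 are given per list, and 50.2% of all genes tested lay above 0. Beside the log2 difference of each gene named the 95% interval from limma is given, before adjustment.

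The EF-hand partners are small proteins that dock on annexin tails. S100A10, the partner of annexin A2, was at 508 and 561 FPKM in control cells, against 528 and 594 in knockdown cells, and the groups overlapped. Its log2 difference was 0.07, with a 95% interval of -0.25 to 0.39 (limma, adjusted p = 0.999). S100A11, which binds annexin A1, was at 1344 and 1447 FPKM under the control shRNA and 1469 and 1551 FPKM after knockdown. Both knockdown values were higher, with a log2 difference of 0.11 and a 95% interval of -0.21 to 0.44 (limma, adjusted p = 0.992). S100A6, a partner of annexin A11, was at 1391 and 1693 FPKM and at 1074 and 1421 FPKM, with a log2 difference of -0.31 and a 95% interval of -0.84 to 0.22 (limma, adjusted p = 0.916). PDCD6, which binds annexins A7 and A11, was at 45.9 and 51.2 FPKM and at 52.5 and 52.2 FPKM (log2 difference 0.11, 95% interval -0.16 to 0.37, limma adjusted p = 0.973). Of the 6 measured genes of this list 4 lay above 0 and 2 below, with a median log2 difference of 0.06. Per length, ANXA2 was present at 3.20 to 3.78 times S100A10 over the 4 samples. S100A11 stood at 4.60 times ANXA1 in both controls and at 3.93 and 3.92 times in knockdown. The lower ratio in knockdown follows from the values of ANXA1 and S100A11 given above and is no separate evidence.

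The receptors for annexin A1 were barely measured. FPR1, FPR2 and FPR3, the formyl peptide receptors, were at or below 0.171 FPKM in all 4 samples, and FPR3 was listed at 0. These 3 were named after their values were seen. PLA2G4A, the cytosolic phospholipase that annexin A1 can inhibit, was at 11.1 and 9.66 FPKM in control cells, against 13.0 and 11.9 in knockdown cells (log2 difference 0.24, 95% interval -0.10 to 0.59, limma adjusted p = 0.89). EGFR, a kinase that phosphorylates annexin A1, was at 65.8 and 44.6 FPKM and at 50.8 and 42.5 FPKM, and the groups overlapped (log2 difference -0.22, 95% interval -0.80 to 0.36, limma adjusted p = 0.985). The 4 measured genes of this list had a median log2 difference of -0.13, with 1 above 0 and 3 below.

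Glucocorticoids induce ANXA1 in many cells, so their receptor and a set of induced genes were examined. NR3C1, the glucocorticoid receptor gene, was at 13.6 and 11.4 FPKM under the control shRNA and 17.3 and 17.2 FPKM after knockdown. Both knockdown samples were higher, with a log2 difference of 0.44 and a 95% interval of 0.10 to 0.78, but an adjusted p of 0.772 in limma. TSC22D3, a glucocorticoid-induced leucine zipper gene, was at 35.1 and 28.3 FPKM in control cells, against 24.2 and 15.5 in knockdown cells. Both knockdown samples were lower, with a log2 difference of -0.67 and a 95% interval of -1.32 to -0.03, and an adjusted p of 0.817 in limma. Over the 7 measured genes 3 lay above 0 and 4 below, with a median of -0.09.

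Among membrane repair and ESCRT genes, which reseal torn plasma membrane, 12 of the 14 measured lay above 0 and 2 below. Of all genes tested, 50.2% lay above 0. The median log2 difference of the list was 0.11, and none of its genes passed after adjustment. CAV1, the caveolar coat gene, was at 270 and 297 FPKM under the control shRNA and 210.0 and 240.0 FPKM after knockdown. Its groups did not overlap (log2 difference -0.33, 95% interval -0.64 to -0.03, limma adjusted p = 0.806). CAPNS1, the small subunit of calpains, was at 69.2 and 70.6 FPKM and at 75.9 and 83.0 FPKM (log2 difference 0.18, 95% interval -0.07 to 0.43, limma adjusted p = 0.888).

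Scramblases and flippases set how much phosphatidylserine, the lipid bound by annexin A5, is exposed. XKR8, a scramblase activated in apoptosis, was at 3.18 and 3.15 FPKM in control cells, against 3.69 and 3.53 in knockdown cells (log2 difference 0.15, 95% interval -0.23 to 0.52, limma adjusted p = 0.978). The 6 measured genes had a median of 0.03, with 4 above 0 and 2 below.

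In the plasmin system that annexin A2 helps to assemble on the cell surface, PLAU, the urokinase gene, was at 161 and 176 FPKM under the control shRNA and 187 and 186 FPKM after knockdown (log2 difference 0.15, 95% interval -0.10 to 0.40, limma adjusted p = 0.916). PLAUR, its receptor gene, was at 15.3 and 15.7 FPKM and at 17.7 and 16.9 FPKM (log2 difference 0.15, 95% interval -0.12 to 0.43, limma adjusted p = 0.916). Both genes were higher in both knockdown samples, and the 5 measured genes of the list had a median log2 difference of 0.15. PLG, the plasminogen gene itself, was listed at 0 throughout.

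**Figure D4:**
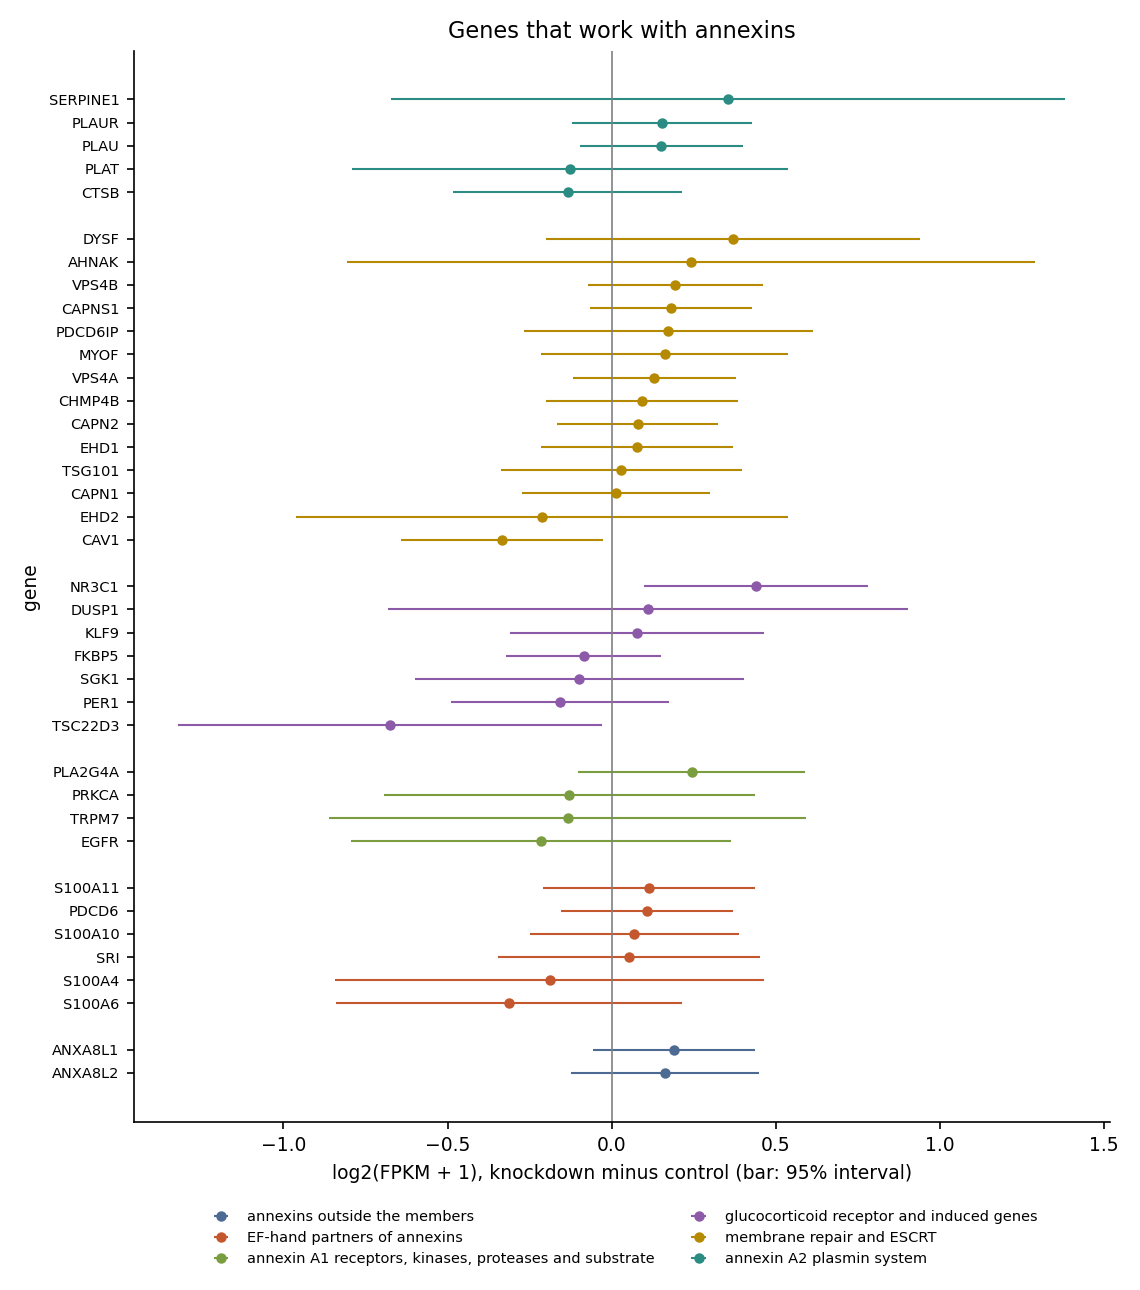
Log2(FPKM + 1) of knockdown minus control for the measured genes of 6 lists (scramblases and flippases are not plotted), with bars for the 95% interval from limma before adjustment and colours for the lists. The interval leaves out 0 for NR3C1 on the higher side and for TSC22D3 and CAV1 on the lower side, and no gene plotted passed after adjustment over all genes.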

How the data were processed

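The deposited table holds FPKM per gene, 1 column per sample, per the file headers. Per the labels' protocols, Trizol RNA went into TruSeq libraries, polyA-selected, stranded and paired-end. STAR 2.5.3a, Cuffdiff 2.2.1 and GRCh37 are named, without roles, in the submitters' processing notes; the annotation release is not given in the sources used here.

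Samples were grouped by their titles. The 13110 of 60302 genes whose mean reached 1 FPKM were fitted as log2(FPKM + 1) with limma 3.58.1 in R 4.3.3 (intensity trend, no covariate, 4 samples), two-sided, with Benjamini-Hochberg adjustment over all genes at 0.05; the scale understates changes of low genes. Folds are ratios of mean FPKM. No permutation test was run, since with 2 samples a side the exact test stops at p = 0.333. The fit was tested on simulated data only with changes larger than those of the annexins and partner genes. Its power for smaller changes was not tested.

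The members and lists were chosen with earlier results of these data known. Named are all members, HNRNPF, annexins outside the members, and some but not all of the overlapping genes on the same strand. Also named are the 2 genes of smallest p per list plus S100A10 and S100A11, and the 3 genes nearest to ANXA1. PLSCR3 and PECAM1 were not analysed here. A few results of the lists and of the sequence search are not reported here. Transcripts came from GENCODE 29 (on another build, so no coordinates were taken): the principal transcript with the longest coding sequence, then the best support, then the lowest number. ANXA8L1 was matched there by symbol, and chromosome 8 was left out of the search for G runs. Alignments used Biopython 1.88, Python 3.11.15.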

Additional observations from a re-analysis of the deposited data

How the results depend on the processing

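Tried were a filter at 5 FPKM or none, pseudocounts of 0.1 and 0.5 FPKM, quantile and median-ratio scaling, a robust fit or one without the trend, the replicate number as a block, each sample left out (a lone sample is then assumed to vary like the other group), and sums with copies and overlapping genes. ANXA1 lay between 0.29 and 0.40 and ANXA5 between -0.63 and -0.36 over 14 alternatives each. ANXA3 (0.20 to 0.34), ANXA6 (-0.46 to -0.25) and ANXA8 (0.10 to 0.33) also kept their direction in all alternatives run. For the 5 annexins without overlap, leaving out a sample could not reverse the direction. The filters, the robust fit, the fit without the trend and the block left every annexin estimate as it was, so they could not either. ANXA2 ran from -0.20 to 0.32. ANXA4 (-0.01 to 0.07), ANXA7 (-0.27 to 0.25) and ANXA11 (-0.46 to 0.17) changed sign when samples were left out, and ANXA7 also with quantile normalization (0.02). The 5 annexins without overlap stayed 5 under both scalings, and were 8 without control 2, when a single control is left; leaving out each sample gave 6 to 8, where 65.3% to 70.2% of all genes tested did not overlap either. The HNRNPF difference stayed at -3.05, with an adjusted p in limma of 0.0988 without the filter, 0.0995 without the trend and 0.164 with the replicate block; it ran from -3.13 to -2.98 when samples were left out. Genes past the threshold in limma numbered 0 without the filter (1972 at an unadjusted p under 0.05), 0 without the trend (789), 0 with the replicate block (1790) and 2 with median-ratio scaling (773), and 0 to 2 when samples were left out; the cause was not tested. No partner gene passed under any of these 13 settings, where the lowest adjusted p in limma ran from 0.288 with the replicate block to 1 without the filter. Same-numbered samples deviated together over all tested genes (correlation 0.39). For 50.4% of these genes both samples numbered 1 lay apart from both numbered 2, against 34.6% apart between control and knockdown. Of the annexins, 2 lay apart by number. With 2 pairs and no label of a shared batch, what the number stands for is unknown, and its part was not tested. Without counts, the depth behind low values is unknown.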
